A study of Mus musculus with 18 samples.

Results

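Hedgehog signalling genes were followed across 18 libraries of mouse colon. They are 9 of the 35405 genes in the deposited table, taken by gene name: Ihh, Ptch1, Smo, Gli1, Gli2, Gli3, Hhip, Foxf1 and Bmp4. Ptch1 was picked because it was higher in IBC than in TNBS, so its level in those groups is given as a description, with no test, and so is every gene in the contrast of IBC with TNBS. Polyadenylated RNA of colon tissue was sequenced in 3 groups of 6 libraries. They are named IBC (isobavachalcone, a plant chalcone), TNBS (trinitrobenzene sulfonic acid is a hapten; given by enema it causes colitis in mice) and vector (called control in the library names). By its title the study is about relief of TNBS colitis by isobavachalcone through the receptor GPR84. Whether the IBC mice also received TNBS, the doses, the times, the strain and the age of the mice are not given in the labels used here. The labels do not state that the libraries of a group come from separate mice, so p-values measure the spread between libraries, which may be technical.

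In the adult gut, Hedgehog ligands are made by epithelial cells and act on the mesenchyme beneath them. Ihh is the main ligand of the colon. Without ligand, the receptor Patched1 (Ptch1) keeps Smoothened (Smo) inactive. Bound ligand lifts that inhibition, Smo enters the primary cilium, and the zinc-finger factors Gli2 and Gli3 become activators instead of repressors. Gli1, Ptch1 and Hhip are transcribed in response, which makes them the usual readouts of the pathway, and Ptch1 and Hhip also restrain it, since Hhip is a membrane protein that binds the ligand. Foxf1 and Bmp4 are mesenchymal genes that respond to Hedgehog in the gut. Foxf1 is a forkhead factor of gut mesenchyme, and Bmp4 is a growth factor that opposes stem cell renewal near the crypt base.

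By group means, Ptch1 and Hhip, both response genes of the pathway, lay on opposite sides of the controls in IBC. Their promoter sequences are shown for that reason. Ptch1 was picked for its level in IBC, and the IBC and vector libraries overlapped for both genes. A link of the promoters to these levels was not tested. RefSeq promoters on GRCm38.p6 were found for 7 of the 9 members. The 250 bases before the start used there are printed in the direction of transcription, and other starts of these genes were not examined. Capitals mark GGGCGG, the GC box, or CCGCCC, its reverse complement, and TGACGTCA, the cAMP response element.
Ptch1, chr13:63565736-63565985, minus strand: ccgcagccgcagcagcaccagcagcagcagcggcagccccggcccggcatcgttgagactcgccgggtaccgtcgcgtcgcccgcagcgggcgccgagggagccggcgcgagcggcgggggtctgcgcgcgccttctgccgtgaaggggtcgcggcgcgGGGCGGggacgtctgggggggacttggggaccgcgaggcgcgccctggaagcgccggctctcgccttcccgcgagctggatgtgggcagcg
Hhip, chr8:80058009-80058258, minus strand: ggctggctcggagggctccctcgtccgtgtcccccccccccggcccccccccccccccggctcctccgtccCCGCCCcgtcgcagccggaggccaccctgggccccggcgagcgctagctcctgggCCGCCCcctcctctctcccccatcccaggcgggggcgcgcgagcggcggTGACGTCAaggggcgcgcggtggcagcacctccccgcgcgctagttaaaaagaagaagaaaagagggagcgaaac
Both windows are rich in G and C, at 78.4% for Ptch1 and 76% for Hhip. The GC box was found in 6 of the 7 windows and in 32.7% of all 32851 promoters, and TGACGTCA in the Hhip window alone of the 7 and in 1.55% of all promoters. The letters GACCACCCA, the consensus bound by Gli factors, and their reverse complement are in none of the 7 windows and in 0.225% of all promoters. These matches describe the windows and no binding was measured.

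The libraries held between 55.7 and 78.9 times 1e6 counts each. They fall into 2 sets by Hoxb13, a homeobox gene of the distal hindgut. It was at 123 CPM (counts per 1e6 scaled counts) or more in 12 libraries and at most 1.44 CPM in IBC 2 and 5, TNBS 2 and 3, and vector 3 and 4, so the high set has 4 libraries of each group and the low set 2. Vector 3 also stood apart in its mitochondrial share of counts, 17.98% against 4.48% to 9.20% in the other 17. TNBS 5 stood apart in its slope of level on gene length, -0.292 log2 CPM for each doubling of length, against -0.080 to 0.101 in the others. This bears on long genes, and Ptch1 is longer than 97.6% of the genes tested. Of all libraries, TNBS 5 also had the highest summed level of leukocyte markers, 1624 CPM. Vector 3 had the highest sum of smooth muscle markers, 9890 CPM, and the lowest of leukocyte markers, 141 CPM. These libraries may thus differ in tissue as well as in quality, which was not tested. Fitted differences of the members that moved most on leaving out vector 3 or TNBS 5 are also given without them. Epithelial, smooth muscle and fibroblast markers were present in all 18 libraries, as in a piece of the whole colon wall. In such bulk tissue fewer cells of a type and less RNA per cell cannot be told apart.

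Levels were compared between genes as FPKM, which allows for gene length. Ihh was the most abundant of the 9 with 24.0 ± 6.03 FPKM (SD, n = 18). It was followed by Foxf1 with 10.5 ± 2.93 FPKM, Bmp4 with 10.3 ± 2.53 FPKM, Smo with 5.41 ± 1.54 FPKM and Ptch1 with 3.30 ± 1.30 FPKM. Gli1 had 1.98 ± 0.884 FPKM, Hhip 1.23 ± 0.428 FPKM, Gli2 0.559 ± 0.276 FPKM and Gli3 0.424 ± 0.196 FPKM. Foxf1 and Bmp4 differed by less than the SD of either, as did Gli2 and Gli3. Gli1 and Hhip differed by less than the SD of Gli1 but more than that of Hhip. The ligand thus stood above its mesenchymal targets, and the 3 Gli genes were at the low end with Hhip. The ranges of neighbours in this order overlapped throughout.

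**Figure D1:**
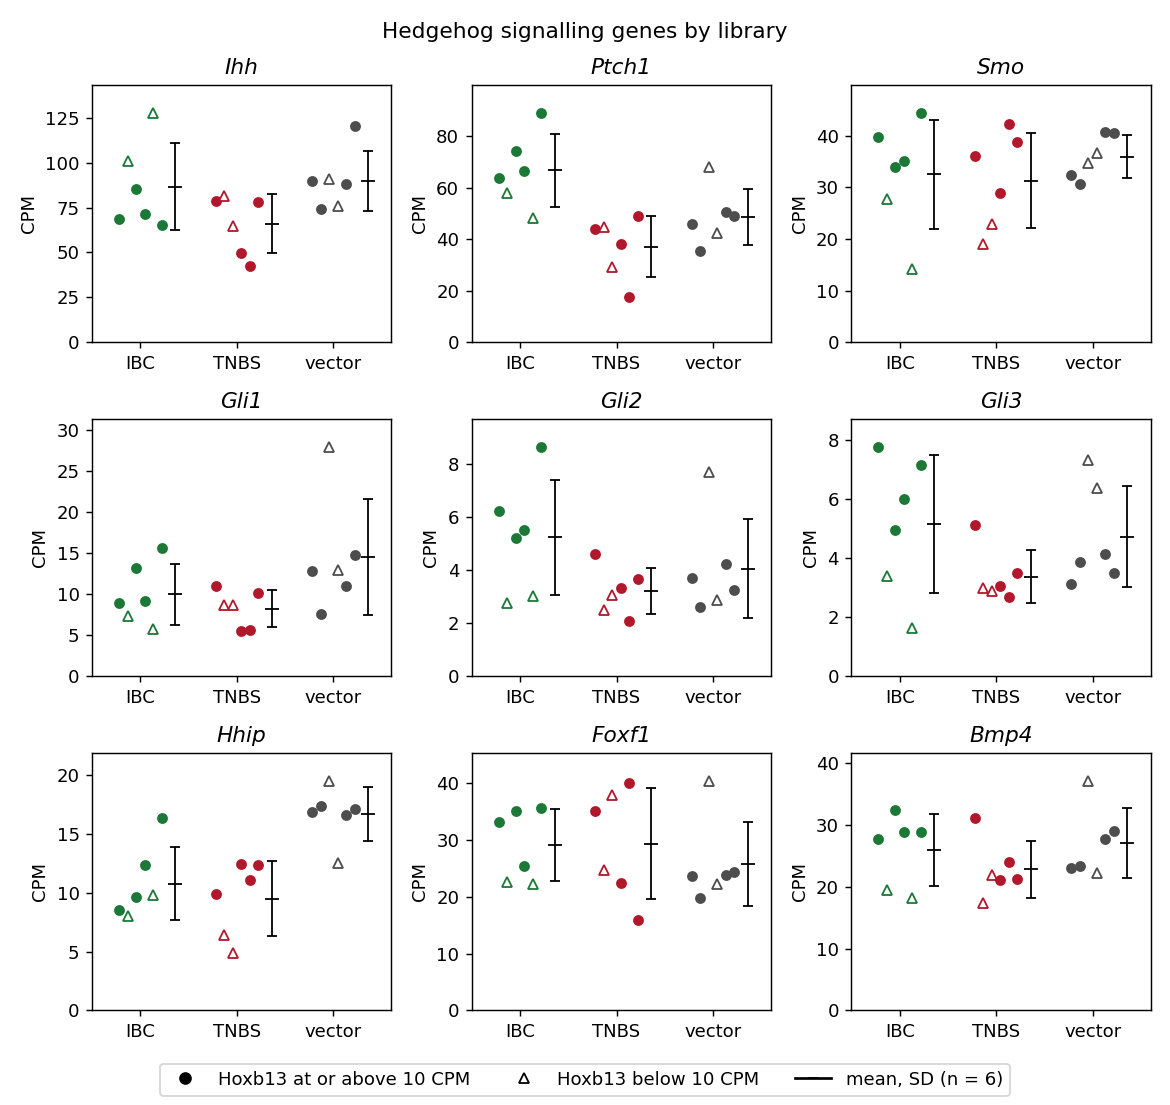
Level of each Hedgehog signalling gene in CPM, a point per library, for IBC, TNBS and vector. Filled circles are the 12 libraries high in Hoxb13 and open triangles the 6 low in it, and bars are the mean and SD of 6 libraries. The 6 Hhip values of TNBS lie below the 6 of vector, and vector 3 is the high triangle in the vector column of Gli1, Gli2 and Foxf1.

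TNBS was set against vector to read the pathway in the colitis model. Hhip had the smallest p of the 8 members tested, at 9.49 ± 3.17 CPM in TNBS and 16.7 ± 2.28 CPM in vector (SD, n = 6 each). Of the 9 members 8 were lower in TNBS and Foxf1 was higher, with a median log2 fold change of -0.39, against -0.01 over all 20855 genes tested, of which 51.1% were lower. None of the 8 members tested passed edgeR's quasi-likelihood test over all genes (adjusted p from 0.138 to 0.652), in a comparison in which 4 genes, 0.0192%, passed. An unadjusted p under 0.05 was found for 3703 genes (17.8%), 7.32% of all genes being lower with such a p, and 3 of the 8 members, Hhip, Gli1 and Ihh, were lower with one.

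The ligand Ihh (ENSMUSG00000006538, chromosome 1 from 74984474 to 74990831 in the deposited table, whose genome build is not given in the sources used here) had a lowest, median and highest value of 42.5, 71.6 and 81.2 CPM in TNBS, against 74.3, 89.1 and 120.2 CPM in vector. All 6 TNBS libraries were below the vector median, though the groups overlapped. The log2 fold change was -0.45 ± 0.19 (SE, edgeR adjusted p = 0.2504).

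Hhip (ENSMUSG00000064325, chromosome 8 from 80692480 to 80784635) had 9.86, 6.41, 4.85, 12.4, 11.1 and 12.3 CPM in TNBS 1 to 6, against 16.9, 17.3, 19.5, 12.5, 16.6 and 17.1 CPM in vector 1 to 6. The groups did not overlap, which held for 0.743% of all genes in the lower direction, but the highest TNBS library at 12.44 CPM and the lowest vector library at 12.52 CPM nearly met. Its log2 fold change was -0.81 ± 0.23 (edgeR adjusted p = 0.138). DESeq2 called it (-0.80 ± 0.24, adjusted p = 0.0370), as it did 2.77% of all genes. Over the 33 other ways of fitting or leaving out libraries Hhip was lower in each, with log2 fold changes from -1.51 to -0.47 and an adjusted p between 0.0370 and 0.349. Without both TNBS 5 and vector 3 it was -0.81. By group, smooth muscle markers were lower as well: all 10 were lower in TNBS, with a median of -0.84. Their summed level ran from 2169 to 4999 CPM in TNBS and from 3284 to 9890 CPM in vector. Single libraries did not keep to this. TNBS 3 had the highest sum of TNBS and the lowest Hhip, and TNBS 6 the lowest sum with Hhip at 12.3 CPM. In vector, vector 3 was the highest in both. The part of smooth muscle in the result was not tested.

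Ptch1 (ENSMUSG00000021466, chromosome 13 from 63656142 to 63721274) had 44.0, 44.7, 29.3, 38.0, 17.6 and 49.1 CPM in TNBS 1 to 6, against 45.8, 35.4, 67.9, 42.5, 50.4 and 49.0 CPM in vector 1 to 6. TNBS 5 was the lowest of all and vector 3 the highest of these 12. The log2 fold change of -0.39 ± 0.22 was -0.12 without both of these libraries and -0.16 with the length slope as a covariate. The transducer Smo (ENSMUSG00000001761, chromosome 6 from 29735502 to 29761364) had 19.0, 32.5 and 42.3 CPM as lowest, median and highest in TNBS, against 30.6, 35.6 and 40.8 CPM in vector. Its groups overlapped over most of their range (-0.20 ± 0.23, edgeR adjusted p = 0.648), and without both TNBS 5 and vector 3 the difference was -0.31.

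Among the Gli factors, Gli1 (ENSMUSG00000025407, chromosome 10 from 127165751 to 127177843), the member of the family that depends on the signal for its own transcription, had 5.52, 8.66 and 10.9 CPM as lowest, median and highest in TNBS, against 7.55, 12.9 and 28.0 CPM in vector. All 6 TNBS libraries were below the vector median. The difference was -0.81 ± 0.30 (edgeR adjusted p = 0.202), and -0.51 without vector 3, the library with 28.0 CPM. Gli1 overlaps Arhgap9 by 62 bases on the other strand, and since the strand setting of the counting is not known some of its counts may be shared. An overlap with another gene was found for 5 of the 9 members. Bmp4 overlaps Gm15222 by 1784 bases on the other strand, with 1388 counts for Gm15222 and 30021 for Bmp4 over 18 libraries. The genes that overlap Ptch1, Smo and Gli3 had 34, 62 and 191 counts. Gli3 (ENSMUSG00000021318, chromosome 13 from 15637820 to 15904611), which acts mainly as the repressor, had 2.67, 3.03 and 5.12 CPM in TNBS, against 3.11, 4.01 and 7.33 CPM in vector (-0.48 ± 0.32, edgeR adjusted p = 0.417), and -0.30 without vector 3. Gli2 (ENSMUSG00000048402, chromosome 1 from 118761862 to 118981349), the main activator, had 2.10, 3.20 and 4.60 CPM in TNBS, against 2.59, 3.48 and 7.67 CPM in vector (-0.34 ± 0.31, edgeR adjusted p = 0.559). Without vector 3, the library with 7.67 CPM, the difference of Gli2 was -0.04, and without TNBS 5 it was -0.22. Groups overlapped for both genes.

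Of the mesenchymal targets, Bmp4 (ENSMUSG00000021835, chromosome 14 from 46620977 to 46628126) had 17.4, 21.6 and 31.1 CPM as lowest, median and highest in TNBS, against 22.2, 25.6 and 37.2 CPM in vector (-0.25 ± 0.18, edgeR adjusted p = 0.451), and -0.12 without vector 3. Foxf1 (ENSMUSG00000042812, chromosome 8 from 121811125 to 121814883) had 15.9, 29.9 and 40.1 CPM in TNBS, against 19.7, 23.7 and 40.4 CPM in vector (0.19 ± 0.23, edgeR adjusted p = 0.652). Its difference was 0.38 without vector 3 and 0.10 without TNBS 5. Of the 3 response genes, Hhip alone kept its difference without both libraries, at -0.81, against -0.43 for Gli1 and -0.12 for Ptch1.

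**Figure D2:**
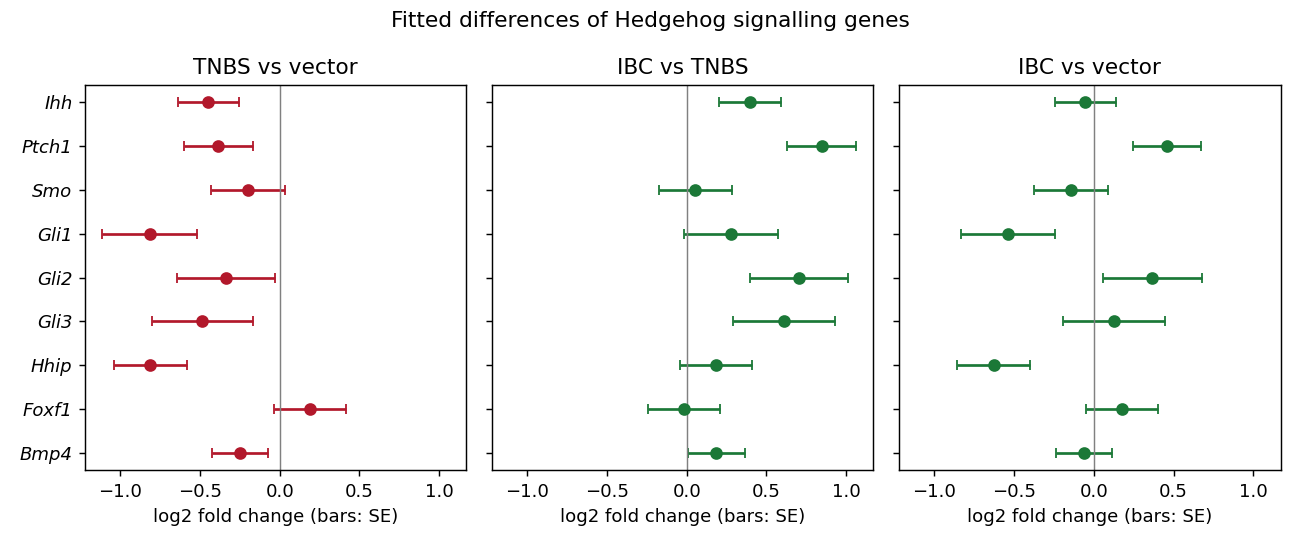
Fitted log2 fold change of each gene with its standard error, in a panel for each of the 3 comparisons. Points left of 0 are lower in the group named first: 8 of 9 genes in TNBS against vector, 1 of 9 in IBC against TNBS and 5 of 9 in IBC against vector. The comparisons share libraries and are not independent of each other.

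Between IBC and TNBS the genes were read side by side without a test. Ptch1 had 63.7, 58.1, 74.4, 66.7, 48.3 and 89.2 CPM in IBC 1 to 6, against the 17.6 to 49.1 CPM of the TNBS libraries. IBC 5 alone lay below the highest TNBS library, and all 6 IBC libraries were above the TNBS median. The means were 66.7 ± 14.1 CPM in IBC and 37.1 ± 11.7 CPM in TNBS (SD, n = 6 each), a log2 fold change of 0.85 ± 0.22. It ranged from 0.52 to 1.01 over the 33 other settings, with 0.71 without TNBS 5 and 0.68 with the length slope as a covariate. Called genes made up 0% of this comparison with edgeR, and groups did not overlap for 0.149% of genes, of which no member was one.

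Gli2 was next, with 2.77, 5.36 and 8.65 CPM as lowest, median and highest in IBC, against 2.10, 3.20 and 4.60 CPM in TNBS (0.70 ± 0.31). Gli3 had 1.63, 5.48 and 7.77 CPM in IBC, against 2.67, 3.03 and 5.12 CPM in TNBS (0.61 ± 0.32). With the length slope as a covariate the difference was 0.44 for Gli2 and 0.30 for Gli3. Ihh had 65.2, 78.4 and 127.9 CPM in IBC, against 42.5, 71.6 and 81.2 CPM in TNBS (0.39 ± 0.19). In IBC the lowest libraries of Gli2 and Gli3 were those low in Hoxb13, IBC 2 and 5, which were the highest 2 of Ihh.

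The fold changes of the remaining members were smaller than 0.30 on the log2 scale. Gli1 differed by 0.28 ± 0.30, Bmp4 by 0.19 ± 0.18, Hhip by 0.18 ± 0.23, Smo by 0.05 ± 0.23 and Foxf1 by -0.02 ± 0.23. Without TNBS 5 Smo was at 0.17 and Foxf1 at 0.10. Of the 9 members 8 were higher in IBC than in TNBS with a median of 0.28, against 50.3% and 0.00 over all genes, and because Ptch1 was chosen on this contrast nothing is read from that count.

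The comparison of IBC with vector asks how far the genes in IBC stood from the controls. Hhip and Gli1 were lower in IBC than in vector, and Ptch1 was higher. None of the 8 members tested passed edgeR's test (adjusted p from 0.420 to 0.968), in a comparison in which 0 genes, 0%, passed, 1778 genes (8.53%, with 3.63% of all genes lower) had an unadjusted p under 0.05 and DESeq2 called 186 (0.892%). These values share the IBC or vector libraries with the comparisons above. Hhip had 8.56, 8.02, 9.60, 12.3, 9.82 and 16.3 CPM in IBC 1 to 6, against 12.5 to 19.5 CPM in vector. Only IBC 6 reached into the vector range. The log2 fold change of -0.63 ± 0.23 (edgeR adjusted p = 0.420) was the sole one of a tested member with an unadjusted p under 0.05, and Hhip was lower in each of the 33 other settings.

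Gli1 averaged 10.01 ± 3.72 CPM in IBC and 14.5 ± 7.03 CPM in vector (-0.54 ± 0.30, edgeR adjusted p = 0.678), and the difference was -0.22 without vector 3. Ptch1 averaged 66.7 ± 14.1 CPM in IBC and 48.5 ± 10.9 CPM in vector, a log2 fold change of 0.46 ± 0.22 that is given without a test. All 6 IBC libraries were above the vector median. Vector 3, with 67.9 CPM, lay among the IBC libraries. Vector 5 and 6, with 50.4 and 49.0 CPM, lay above IBC 5, with 48.3 CPM. The other 6 members differed by -0.14 to 0.37. Gli2 had 0.37 ± 0.31, Foxf1 0.18 ± 0.23 and Gli3 0.13 ± 0.32, and Smo had -0.14 ± 0.23, Bmp4 -0.06 ± 0.18 and Ihh -0.05 ± 0.19. Without vector 3 the difference was 0.67 for Gli2, 0.37 for Foxf1, 0.32 for Gli3 and 0.07 for Bmp4.

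Because Ptch1, Gli1 and Hhip are transcribed in response to the same signal, their counts were also set against each other within each library, which removes the scaling of totals. These ratios were chosen after the values were seen and rest on Ptch1, so they are a description without a test. The share of other gene pairs whose groups do not overlap was not counted. A ratio does not remove the slope on gene length. Ptch1 has 15658 bases, against 5527 for Gli1 and 10028 for Hhip. The ratio of Ptch1 to Gli1 was 7.09, 7.91, 5.62, 7.28, 8.45 and 5.71 in IBC 1 to 6. It was 4.02, 5.16, 3.38, 6.88, 3.15 and 4.85 in TNBS 1 to 6, and 3.57, 4.70, 2.43, 3.29, 4.56 and 3.31 in vector 1 to 6. Every IBC library was above every vector library, and TNBS 4 alone of the TNBS libraries lay in the IBC range.

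The ratio of Ptch1 to Hhip averaged 6.37 ± 1.24 in IBC, 4.35 ± 1.96 in TNBS and 2.92 ± 0.522 in vector (SD, n = 6 each). It ran from 4.91 to 7.75 in IBC and from 2.05 to 3.48 in vector, again without overlap, while TNBS spanned both, from 1.59 in TNBS 5 to 6.98 in TNBS 2. The ratio of Gli1 to Hhip, which does not use Ptch1, averaged 0.938 ± 0.273 in IBC, 1.00 ± 0.518 in TNBS and 0.866 ± 0.343 in vector. These means cover opposite orders in the 2 sets: the ratio was 0.743 to 1.38 in IBC and 0.436 to 0.865 in vector in the high set, and 0.582 and 0.915 in IBC and 1.03 and 1.43 in vector in the low set. The ratio of Ptch1 to Smo was 1.60 to 3.41 in IBC, 0.417 to 2.36 in TNBS and 1.16 to 1.96 in vector. Its groups overlapped, and of the vector libraries vector 3 alone, at 1.96, lay in the IBC range. The ratio of Ptch1 to Pdgfra, a receptor of gut fibroblasts, was 0.554 to 1.18 in IBC, 0.304 to 1.02 in TNBS and 0.560 to 1.05 in vector, and its groups overlapped.

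**Figure D3:**
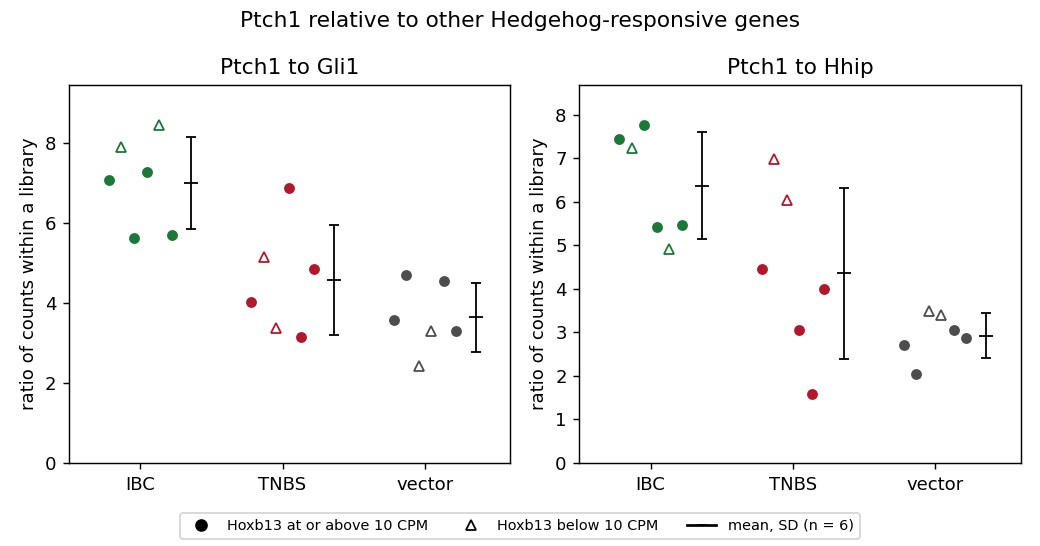
Ratio of counts within each library, Ptch1 to Gli1 on the left and Ptch1 to Hhip on the right, for IBC, TNBS and vector, with the mean and SD of 6 libraries and filled circles for libraries high in Hoxb13. The 6 IBC libraries lie above the 6 vector libraries in both panels, at 5.62 or more against 4.70 or less for Ptch1 to Gli1. Both ratios rest on Ptch1, which was picked for its level in IBC, and how often other gene pairs separate was not counted.

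The group differences were also read within the libraries high and low in Hoxb13. For IBC against vector some had opposite signs in the high and low sets, although none of the 8 members tested passed the interaction test. Within each set the difference of mean log2 CPM is given first for the set of 4 libraries a group and then for the set of 2 a group. For IBC against vector, Gli3 differed by 0.80 in the high set and by -1.52 in the low set. It had 4.96 to 7.77 CPM in the 4 IBC libraries and 3.11 to 4.15 CPM in the 4 vector libraries of the high set. In the low set it had 1.63 and 3.40 CPM in IBC and 6.35 and 7.33 CPM in vector. The groups did not overlap in either set, and their order was opposite. Of all genes, 6.8% were higher in IBC without overlap in the high set, 25.8% were lower without overlap in the low set, and 1.64% did both.

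Gli2 likewise differed by 0.88 and -0.69 between IBC and vector, with 5.20 to 8.65 CPM in IBC and 2.59 to 4.23 CPM in vector in the high set. In the low set it had 2.77 and 3.04 CPM in IBC and 2.87 and 7.67 CPM in vector. Gli1 differed by 0.02 and -1.55, Smo by 0.09 and -0.85, Bmp4 by 0.20 and -0.61, Foxf1 by 0.49 and -0.42, and Ihh by -0.34 and 0.46. Ptch1 differed by 0.70 and -0.02. Hhip had the same sign in both sets, with -0.58 and -0.81. Gli1 at 0.02 in the high set and Ptch1 at -0.02 in the low set barely differed. The share of all genes whose sign turned was not counted, so nothing is read from how many members did. Vector 3 carries part of the low-set differences. Without it, and so with 1 vector library in the low set, the low-set difference was -1.42 for Gli3, -0.99 for Gli1, -0.88 for Smo, -0.24 for Bmp4, 0.59 for Ihh and -0.49 for Hhip. It was 0.01 for Gli2 and 0.01 for Foxf1, which barely differed, and 0.32 for Ptch1.

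A fit with an interaction of group and set, added after seeing the data, tested this change of difference for the 8 members other than Ptch1. For IBC against vector the interaction of Gli3 was -2.27 on the log2 scale (edgeR adjusted p = 0.0964), the smallest adjusted p of the 8, with Gli2 at -1.75 (0.223) and Gli1 at -1.67 (0.248). None passed, and 1 of 20855 genes did. The low set has 2 libraries a group, and 1 of its vector libraries is vector 3.

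For TNBS against vector, Hhip differed by -0.58 in the high set and -1.48 in the low set, Gli1 by -0.55 and -1.13, Ihh by -0.61 and -0.19 and Ptch1 by -0.37 and -0.57, so each had 1 direction in both sets. Without vector 3 the low-set differences were -1.16 for Hhip, -0.57 for Gli1, -0.06 for Ihh and -0.23 for Ptch1. Smo differed by 0.02 and -0.77, Bmp4 by -0.09 and -0.56 and Foxf1 by 0.22 and 0.03, and without vector 3 the low-set values were -0.81, -0.19 and 0.46. Gli3 differed by -0.06 and -1.20 and Gli2 by -0.04 and -0.75, so their difference was larger in the low set, where without vector 3 it was -1.10 for Gli3 and -0.05 for Gli2. Without TNBS 5 the difference of Ptch1 in the high set was -0.04, and that of Hhip -0.56. For IBC against TNBS, Ptch1 differed by 1.07 and 0.55, Gli2 by 0.92 and 0.06 and Gli3 by 0.87 and -0.32. Without TNBS 5 these high-set differences were 0.75, 0.71 and 0.74. In the high set Ptch1 had 63.7 to 89.2 CPM in IBC, 17.6 to 49.1 CPM in TNBS and 35.4 to 50.4 CPM in vector, and the choice of Ptch1 enters the order of IBC and TNBS.

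**Figure D4:**
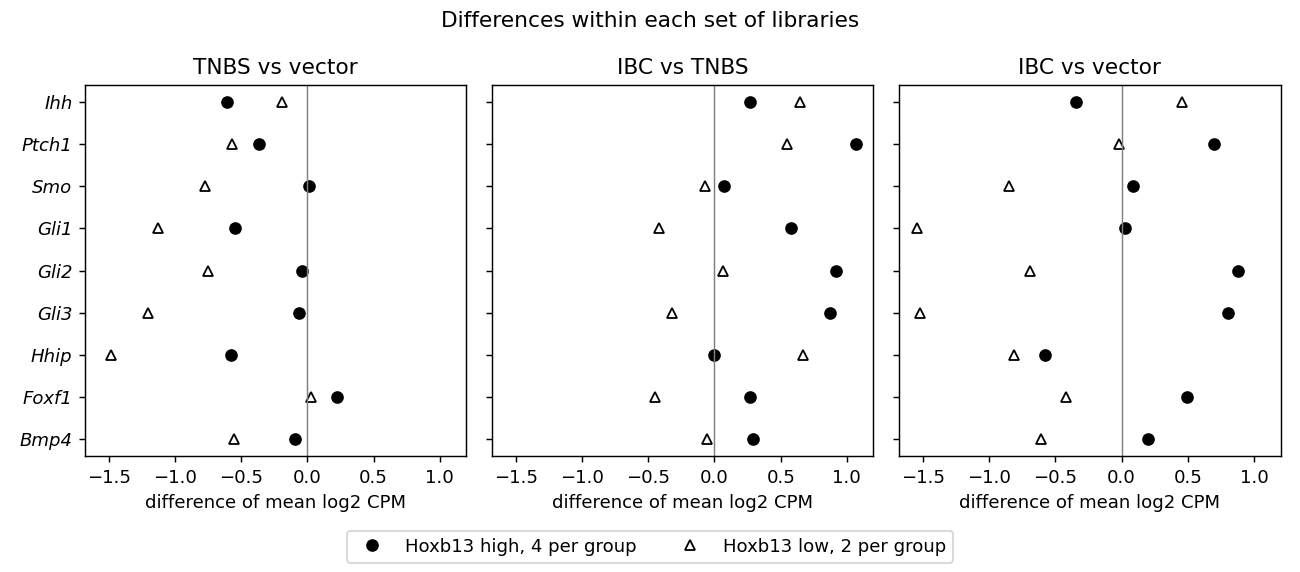
Difference of mean log2 CPM for each gene within the libraries high in Hoxb13 (filled circles, 4 per group) and low in it (open triangles, 2 per group), in a panel for each comparison. In the right panel, IBC against vector, circle and triangle of Gli3 fall on opposite sides of 0, and those of Hhip on the same side. All libraries are drawn. Without vector 3, which leaves 1 vector library in the low set, the difference was 0.01 for Gli2, 0.01 for Foxf1 and 0.32 for Ptch1.

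Fibroblast markers were also split by set in IBC. Their summed level was 4780 to 6526 CPM in the 4 IBC libraries of the high set, against 1698 to 4505 CPM in TNBS and 1392 to 2432 CPM in vector. In the low set it was 1252 and 1434 CPM in IBC, 1497 and 1685 CPM in TNBS and 1373 and 2600 CPM in vector. All 10 fibroblast markers were higher in IBC than in vector over the 18 libraries, with a median of 0.72, as were all 10 leukocyte markers, with a median of 0.65. All 10 smooth muscle markers were lower in IBC than in vector, with a median of -0.59. The summed level of 10 epithelial markers was 23168 and 30132 CPM in the 2 IBC libraries low in Hoxb13 and 8818 to 11531 CPM in the other 4. In IBC the high Ihh of IBC 2 and 5 thus stood beside high epithelial markers. The high Ptch1, Gli2 and Gli3 of the other 4 stood beside high fibroblast markers. In the other groups this held in part. Vector 3 was the highest of vector in Ptch1, Gli2, Gli3 and the fibroblast sum. TNBS 1 and 4 had fibroblast sums of 4505 and 4076 CPM, but Ptch1 at 44.0 and 38.0 CPM, below the vector mean of 48.5 CPM. TNBS 2 was the highest of TNBS in Ihh and the epithelial sum. Vector 6 had the highest Ihh of vector, 120.2 CPM, but an epithelial sum of 13642.5 CPM, against 19824 CPM in vector 3. The part of these cell types in the results was not tested.

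**Figure D5:**
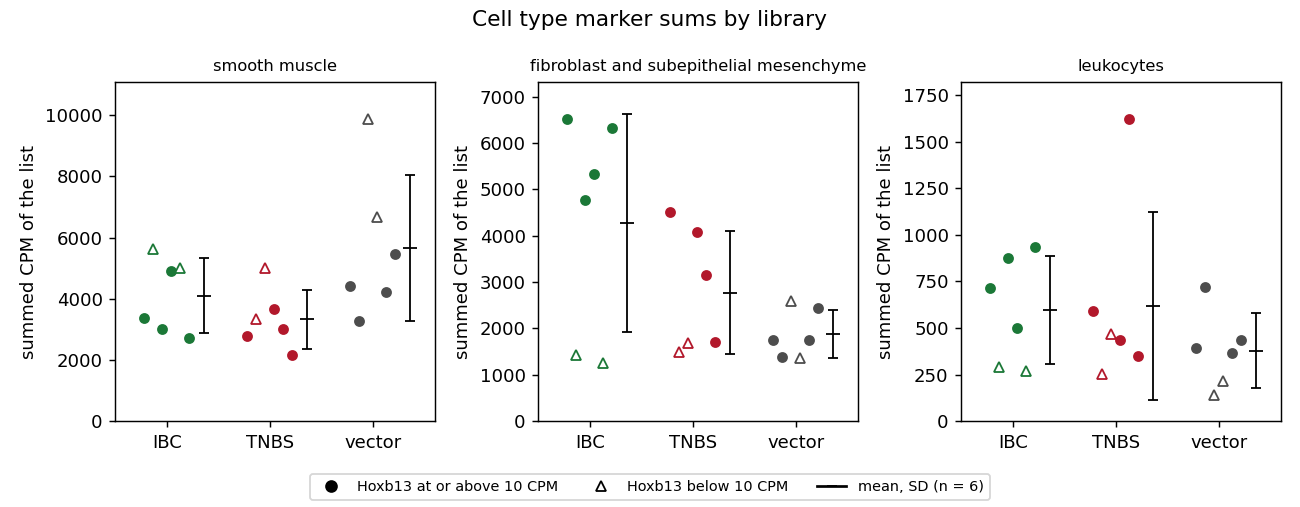
Summed CPM of 10 smooth muscle, 10 fibroblast and 10 leukocyte markers in each library of IBC, TNBS and vector, with the mean and SD of 6 libraries. Filled circles are libraries high in Hoxb13. In the fibroblast panel the 4 IBC circles lie at 4780 CPM or more and the 2 IBC triangles at 1434 CPM or less.

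Log2 CPM of Ptch1 was set beside that of the other 8 members across the 12 libraries high in Hoxb13. These libraries span the 3 groups, and the 4 of IBC are the 4 highest in Ptch1, so the choice of Ptch1 enters each value and the correlations are a description without a test. Gli2 had the highest Pearson r of the 8, at 0.91 (Spearman rho = 0.86), and r was 0.85 without the 2 libraries farthest from the median of Ptch1. Gli3 had r = 0.77 and rho = 0.73, with r = 0.67 without the 2 libraries.

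With Gli1 r was 0.72 and rho 0.62, and r was 0.44 without the 2 libraries. With Hhip r was -0.01 and rho -0.25, and r was -0.55 without them, so the values of Gli1 and Hhip depend on those libraries. The same holds for Foxf1, with r = 0.03 and 0.52 without them, for Smo, with 0.12 and 0.44, and for Ihh, with 0.48 and 0.20. Bmp4 had r = 0.54 and 0.64 without them. In the 6 libraries low in Hoxb13 r ran from -0.08 for Foxf1 to 0.75 for Hhip, and that of Hhip was -0.32 without the 2 farthest libraries.

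Over all 18 libraries, given as a description, the genes most like Ptch1 were Tbcel (r = 0.91), Spata13 (0.89), Fbxl20 (0.88), Mnt (0.87) and Zfp740 (0.86), and Gli2 ranked 101. Those most like Gli1 were Prr33 (0.88), Olfml2a (0.87), Zc2hc1a (0.87), Adgrl1 (0.87) and Cped1 (0.86), with Bmp4 at rank 337. Those most like Ihh were Dennd6b (0.82), Neurl1b (0.81), Cda (0.80), Gm29609 (0.80) and Dynll2 (0.79). No member was among the 5 genes most like Ptch1, Gli1 or Ihh, the 3 members for which this was read. All 18 libraries share the Hox split, which enters these values too.

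The wider pathway was read from 7 lists of 69 genes in all, the members included, and all 69 passed the filter on low counts. Between TNBS and vector 51 of the 69 were lower and 18 higher, with a median of -0.24, against -0.01 over all genes. With edgeR 1 of the 69 passed, Disp3, and 0 passed in the higher direction, where 1 gene of the whole table did. Disp3, a relative of the transporter that releases Hedgehog from the cell, had 0 counts in all 6 TNBS libraries and 8 to 16 counts in the vector libraries (edgeR adjusted p = 0.0484). In IBC it had 0 counts in IBC 4 and 4 to 11 in the other 5. No fold is given, since counts per fragment are not known for this table. Its call was lost when any of 15 of the 18 libraries was left out. DESeq2 gave it no adjusted p in TNBS against vector, and it did not pass the filter with counts divided by 4.

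By role, 8 of 9 genes of ligand processing and release were lower in TNBS than in vector (median -0.27, 1 called), 7 of 8 receptors and co-receptors (-0.37), 13 of 17 cilium transducers (-0.17), 10 of 15 Gli kinases and degradation genes (-0.13), the 3 Gli factors (-0.48) and 8 of 14 mesenchymal targets (-0.14). No gene of these lists other than Disp3 was called. Scube2, a secreted protein that helps release the ligand, averaged 0.409 ± 0.181 CPM in TNBS and 2.05 ± 1.76 CPM in vector (-2.32 ± 0.60, edgeR adjusted p = 0.113). DESeq2 called it (adjusted p = 0.00671), as it did 2.77% of all genes. The groups did not overlap, as for 0.743% of all genes in the lower direction, but TNBS reached 0.557 CPM and vector began at 0.589 CPM. The vector mean rests on vector 3 and 4, at 4.97 and 3.46 CPM, the others having at most 1.30 CPM. Dhh, the ligand of peripheral nerve sheaths, was one of the few higher in TNBS, at 1.09 ± 0.256 CPM in TNBS and 0.584 ± 0.336 CPM in vector (0.89 ± 0.34, edgeR adjusted p = 0.211). Cdon, a co-receptor that helps the ligand bind, had -0.58 ± 0.26 (edgeR adjusted p = 0.263), and Gpr161, a ciliary receptor that holds the pathway off, had -0.79 ± 0.27 (edgeR adjusted p = 0.187). Prkaca, the catalytic subunit of protein kinase A that marks Gli proteins for processing, had -0.17 ± 0.09 (edgeR adjusted p = 0.325). Myocd, a coactivator of smooth muscle genes, had -1.19 ± 0.54 (edgeR adjusted p = 0.260), beside the lower smooth muscle markers given above. Without both TNBS 5 and vector 3, Gpr161 was at -0.48, Prkaca at -0.098 and Myocd at -0.72.

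Between IBC and TNBS 59 of the 69 genes were higher and 10 lower, with a median of 0.20, against 0.00 over all genes, and 0 were called with edgeR. The same TNBS libraries stand in both of these counts. Kif7, a kinesin that organises the cilium tip, had 0.57 ± 0.26, Mycn, a proliferation factor, 0.81 ± 0.27, and Smurf1, a ubiquitin ligase, 0.16 ± 0.17, or 0.085 without TNBS 5. By role, all 9 genes of ligand processing, 15 of 17 cilium transducers and 12 of 15 Gli kinases and degradation genes were higher in IBC, with medians of 0.29, 0.26 and 0.04.

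Between IBC and vector 35 of the 69 were higher and 34 lower, with a median of 0.02, where 49.1% of all genes were higher, and 0 were called. The genes with the smallest p in their lists included Wnt5a, a Wnt ligand of the mesenchyme, at 24.3 ± 7.57 CPM in IBC and 13.04 ± 5.39 CPM in vector (0.90 ± 0.29, edgeR adjusted p = 0.363), and Dhh (1.03 ± 0.34, edgeR adjusted p = 0.368). With library weights, limma called both (adjusted p = 0.00886 for Wnt5a and 0.0202 for Dhh), with Bmp7 and Scube1, as it did 2.92% of all genes. Arrb2, an arrestin that brings Smo to the cilium, had 0.44 ± 0.19 (edgeR adjusted p = 0.520), Cul3, a scaffold of the ligase that degrades Gli proteins, had -0.15 ± 0.11 (0.763), and Lrp2, a large endocytic co-receptor at most 1.48 CPM in any library, had 1.42 ± 1.19 (0.817).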

How the data were processed

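Per the labels, polyadenylated RNA from mouse colon was sequenced, and per the submitters' processing notes reads were trimmed with cutadapt 1.9. For the aligner, the counting program and the build, the entry is not given in the sources used here. Per the file headers, the deposited table gives a count and an FPKM value for each of 35405 genes and 18 libraries. Low counts cluster at 4 (19961 gene and library pairs, against 9977 at 3), so 1 fragment may stand for several counts, and no limit is given for a count of 0.

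Genes were filtered with filterByExpr, scaled by TMM and tested with edgeR 4.0.16 (quasi-likelihood, 1 fit of 18 libraries with 3 group means, two-sided, Benjamini-Hochberg over 20855 genes, threshold 0.05). Levels are CPM of the scaled totals, and log2 CPM has a prior count of 2. A standard error is the size of the fold change over the root of F. Other tools were limma 3.58.1 and DESeq2 1.42.0 under R 4.3.3, and scipy 1.17.1. Alternatives were other filters, FPKM pseudocounts, DESeq2, library weights, a Hox covariate, each Hoxb13 set (limit 10 CPM), each library left out, and others. Same-numbered libraries did not deviate together (7 of 18 pairs correlated above 0.1, median -0.0208), so libraries were treated as unpaired. Planned p-values for the correlations with Ptch1 are not given, since Ptch1 was chosen on these libraries. On simulated data the test recovered 76.5%, 82% and 77% of 4-fold changes on 20423, 20402 and 20435 genes, for TNBS against vector, then IBC against TNBS, then IBC against vector. The simulated libraries had no Hoxb13 split, length slope or outlying library. Smaller changes were not simulated, and the fitted differences of the members were all smaller than 4-fold, so these shares do not cover them.

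The members and lists were chosen with earlier results of these data known. The text names the 9 members, the non-member of each list with the smallest p in a comparison, and the 5 genes most like Ptch1, Gli1 and Ihh. For 1 gene that this rule names, the result is not reported here. Bmp7 and Scube1 are named outside that rule, after their values were seen.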

Additional observations from a re-analysis of the deposited data

Results flagged for a closer look

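Ihh was at 120.2 CPM in vector 6, against 74.3 to 90.9 CPM in the other vector libraries, a gap large for 6 values by Dixon's criterion. By the same criterion vector 3 stood apart from its group in Gli1 (28.0 CPM, against 7.55 to 14.8 CPM), Gli2 (7.67 CPM, against 2.59 to 4.23 CPM) and Foxf1 (40.4 CPM, against 19.7 to 24.3 CPM). Gli3 was at 5.12 CPM in TNBS 1, against 2.67 to 3.49 CPM in the other TNBS libraries. These are 5 of 33 groups of values examined, where chance flags about 1 in 20.

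The difference of Gli3 between IBC and vector was in opposite directions in the 2 sets of libraries, -1.52 in the set low in Hoxb13 and 0.80 in the set high in it, a change of -2.33 on the log2 scale. The interaction itself had an edgeR adjusted p = 0.0964 over all genes and did not pass.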

How the results depend on the processing

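The precision of every value is limited by 6 libraries a group, and of values within the set low in Hoxb13 by 2 a group. With edgeR 4 genes were called in TNBS against vector, 0 in IBC against TNBS and 0 in IBC against vector. DESeq2 called 578, 2 and 186 in the same order. In TNBS against vector the count was 9 with library weights, 206 with the Hox score as covariate, 2 with the stricter filter, 1 with the length slope as covariate, and 0 with no filter, with the 2 groups alone, with counts divided by 4, without both TNBS 5 and vector 3, in either Hoxb13 set alone, and with limma on log2 FPKM at pseudocounts of 0.1 and 1. In IBC against vector it was 8 with the 2 groups alone, 39 with the Hox score, 30 in the set high in Hoxb13 and 610 with library weights. Leaving out 1 library gave 0 to 323 in TNBS against vector, 0 to 1 in IBC against TNBS and 0 to 5 in IBC against vector. TNBS 6 is the library whose removal gave 323. The covariate of length, the removal of both libraries and the interaction were chosen after seeing the data. With the replicate number as a block, although the numbers showed no pairing of the libraries, the count in TNBS against vector was 1, and 0 members and 0 listed genes were called, with Lrp2 at -0.030 in that comparison and Smurf1 at -0.019 in IBC against vector.

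Of the members, DESeq2 called 1 (Hhip, TNBS against vector), and no other setting called any of the 8 tested. Of the 69 listed genes DESeq2 called 2 in TNBS against vector, Hhip and Scube2. In IBC against TNBS it called 1, Disp3, which is listed to show how settings differ and is not read as a result. Library weights called 4 in IBC against vector. The 1 called in TNBS against vector was 0 with the 2 groups alone, either Hoxb13 set alone, both libraries left out, counts divided by 4, the length slope, library weights, limma at pseudocounts of 0.1 and 1, no filter or the stricter filter, and 0 to 1 without 1 library, as in IBC against TNBS. That gene, Disp3, was not among the genes tested with the 2 groups alone, counts divided by 4 or the stricter filter, and DESeq2 gave it no adjusted p in TNBS against vector.

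Directions turned in the set high in Hoxb13 for IBC against vector in Bmp4 (0.22), Cdon (0.024), Gli1 (0.050), Gpr161 (0.012), Myocd (0.46) and Smo (0.12), and for TNBS against vector in Smo (0.024) and Lrp2 (-0.84). In the low set they turned for IBC against vector in Foxf1 (-0.49), Gli2 (-0.86), Gli3 (-1.45), Ihh (0.46), Kif7 (-0.69), Smurf1 (-0.50) and Wnt5a (-0.14), and for TNBS against vector in Mycn (0.17). Without TNBS 5 and vector 3, Gli2 was at 0.044 in TNBS against vector and Bmp4 at 0.066 in IBC against vector. With the length slope Mycn (0.026) and Smurf1 (0.028) turned in TNBS against vector. Library weights gave Bmp4 0.15 in IBC against vector, and Lrp2 -1.85 in TNBS against vector. With limma on log2 FPKM, IBC against vector gave Bmp4 0.014, 0.0144 and 0.017 and Ihh 0.00808, 0.00804 and 0.00769 at pseudocounts of 0.01, 0.1 and 1. Without 1 library, IBC against vector ran from -0.14 to 0.067 for Bmp4, -0.028 to 0.32 for Gli3, -0.20 to 0.049 for Ihh, -0.25 to 0.011 for Smo and -0.053 to 0.12 for Smurf1, and TNBS against vector from -0.58 to 1.88 for Lrp2 and -0.24 to 0.0099 for Mycn. On log2(FPKM + 0.1) the correlation with Ptch1 in the high set was 0.80 for Bmp4, 0.66 for Ihh, 0.62 for Smo and 0.29 for Hhip, and Gli3 in TNBS against vector was -0.93 in the low set. The cause of these changes was not tested.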
